A study of Mus musculus with 40 samples.

Results

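The data set followed mouse cells that lack the lamin B receptor (LBR) as they passed from the naive to the primed state of pluripotency. LBR is a protein of the inner nuclear membrane that tethers heterochromatin to the nuclear lamina, and its membrane domain is a sterol reductase. The libraries were chosen by label: 4 LBRKO embryonic stem (mES) cell libraries and 4 LBRKO epiblast-like cell (EpiLC) libraries, 8 of the 40 total RNA-seq libraries of the series. Beside them stood 8 wild-type (WT) mES cell and 8 WT EpiLC libraries, whose passage shares no library with that of LBRKO. The WT cells were a line from a littermate of the lamin-deficient line. Most of its cells had a normal karyotype, and it also held a subpopulation without Y and another without Y that had gained both chromosome 6 and chromosome 8. LBRKO cells came from WT mES cells by CRISPR with 1 guide against exon 2 of *Lbr*. Several clones were made, and the labels do not say which clone a library came from. mES cells of both genotypes were held in 3 µM CHIR-99021 (a GSK3 inhibitor), 1 µM PD0325901 (a MEK inhibitor) and LIF. EpiLCs of both were collected after 48 h in 20 ng/mL FGF and 12 ng/mL activin A. Each library was a culture well of its own, so p-values measure the spread between wells.

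In naive mES cells, a network of transcription factors that includes *Esrrb*, *Nr0b1*, *Klf4* and *Prdm14* holds the cells in a state like that of the epiblast before implantation. Withdrawal of the inhibitors and addition of FGF and activin dissolves this network within days, and formative genes such as *Fgf5*, *Otx2* and *Pou3f1* come on. Activin signals through the same receptors as Nodal, and the SMAD proteins these receptors activate switch on *Lefty1* and *Lefty2*, secreted antagonists that bind Nodal and its coreceptors.

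Reads assigned to genes ran from 39.7 to 48.1 M in the 8 LBRKO libraries. WT replicates 1 to 4 held 25.4 to 33.5 M and WT replicates 5 to 8 held 39.4 to 48.9 M. Levels are given as CPM, in which reads are scaled by TMM-adjusted library sizes, and changes as log2 fold changes of EpiLCs over mES cells ± SE, with n = 4 wells a stage for LBRKO and n = 8 for WT. A gene or transposable element (TE) family rose or fell where the edgeR quasi-likelihood test gave a Benjamini-Hochberg adjusted p under 0.05 and the fold was over 2. The difference between passages is the LBRKO log2 change minus the WT log2 change, tested as an interaction term in the same model. Several libraries stood apart. *Lbr* itself kept its transcript in LBRKO, with 274, 253, 145 and 162 CPM in mES replicates 1 to 4 and 403, 392, 196 and 233 CPM in EpiLC replicates 1 to 4, so that replicates 1 and 2 lay above replicates 3 and 4 at both stages. Other genes divided in the same way. Across 23399 genes, the difference of replicates 1 and 2 from 3 and 4 on the log2 scale had a Pearson r of 0.369 between mES cells and EpiLCs, a description over genes that are not independent. The labels name no clone or batch behind this division. The passage change of *Lbr* was 0.55 ± 0.15, short of the 2-fold threshold. LBRKO EpiLC replicate 3 had 12.7% of its reads on TEs against 7.84 to 9.68% in the other 3. Genes on chromosome 6 had a median log2 level 0.38 above WT in LBRKO mES cells and 0.37 above WT in LBRKO EpiLCs, and their median difference between passages was 0.01 over 1160 genes. WT mES replicates 1 to 4 and 5 to 8 fell into separate clusters for several genes named here, and a call that was lost against one of these WT sets is stated beside the gene. Part of the difference between passages at such a gene cannot be told apart from that division.

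Within LBRKO, 3582 of 23399 genes rose (15.3%) and 2617 fell (11.2%) between mES cells and EpiLCs. In WT, 4270 rose (18.2%) and 3007 fell (12.9%). Of the LBRKO calls, 5050 were shared in direction with WT, which is 81.5% of the LBRKO list and 69.4% of the WT list, and 23 genes were called in opposite directions. Across all genes the 2 passages had a Pearson r of 0.886 and a Spearman rho of 0.787, a description over genes that are not independent. The 6199 called genes were 26.5% of all tested. For 5569 of them no LBRKO EpiLC library overlapped any LBRKO mES library. These genes were called on the same libraries, so the lack of overlap is partly built into the call. The share without overlap over all genes was not counted. The passage itself differed from WT for 731 genes in the higher direction (3.12%) and 674 in the lower (2.88%). Of these 1405 genes (6%), 679 moved the same way as in WT but by less, 313 moved the same way by more, and 413 had changes of other sign. On the first principal component (58.1% of the variance), LBRKO mES cells lay at -95.6 to -89.1, overlapping the WT range of -99.6 to -89.8, with replicate 4 just beyond its upper end. LBRKO EpiLCs lay at 82.9 to 97.0, short of the WT EpiLCs at 110.1 to 114.9 with no overlap.

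**Figure D1:**
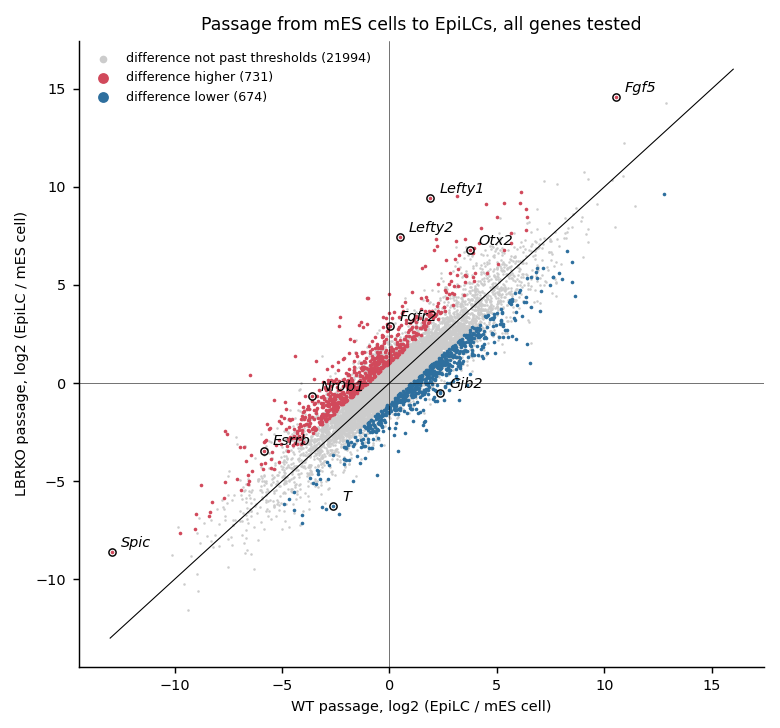
Each point is a gene; the x axis is the log2 change from mES cells to EpiLCs in WT and the y axis that in LBRKO, and the diagonal marks equal change. Red and blue points are the 731 and 674 genes whose passage differed; *Lefty1* and *Lefty2* stand far above the diagonal and *T* below it.

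The naive network went down in LBRKO, and part of its members kept a higher level in LBRKO EpiLCs than in WT EpiLCs. Of 16 naive genes tested, 13 fell and none rose past the thresholds (background 11.2% lower), with a median of -3.90 against -4.66 in WT, and over all genes the medians were 0.111 and 0.0681. For 6 of the 16 the difference between passages was called higher (background 3.12%) and for none lower. In a bulk library, fewer cells in a state and less RNA per cell cannot be told apart.

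*Esrrb* (chr12:86407887-86568409, + strand, GRCm39), an orphan nuclear receptor of the naive network, had 868, 840, 958 and 841 CPM in LBRKO mES cells and 91.5, 95.3, 65.3 and 67.0 CPM in LBRKO EpiLCs. WT libraries ran from 866 through a median of 899 to 991 CPM in mES cells and from 14.0 through 15.1 to 19.3 CPM in EpiLCs. The mES libraries of both genotypes overlapped, and every LBRKO EpiLC library lay above every WT one. *Esrrb* fell by 3.46 ± 0.11 on the log2 scale in LBRKO and by 5.84 ± 0.09 in WT, a difference of 2.38 ± 0.13 (adjusted p = 1.03e-17). LBRKO EpiLCs were 2.32 ± 0.09 above WT EpiLCs on the log2 scale (adjusted p = 2.2e-23).

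*Nr0b1* (chrX:85235338-85239554, + strand), which encodes the DAX1 repressor, a partner of the pluripotency factors, had 65.1, 56.2, 109 and 66.8 CPM in LBRKO mES cells. It kept 58.5, 55.8, 30.6 and 40.7 CPM in LBRKO EpiLCs. WT went from 63.3, 72.9 and 141 CPM (lowest, median, highest) to 5.17, 6.64 and 9.06 CPM. In LBRKO the stages overlapped, whereas in WT they were far apart. The LBRKO change of -0.68 ± 0.20 missed the 2-fold threshold, the WT change was -3.62 ± 0.16, and the difference was 2.94 ± 0.25 (adjusted p = 7.84e-12). With LBRKO replicates 3 and 4 alone the LBRKO change was -1.30 and called as a fall.

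*Nr5a2*, a nuclear receptor that binds near *Pou5f1*, had 105 to 120 CPM in LBRKO mES cells and 9.74, 11.7, 9.84 and 7.82 CPM in EpiLCs, where WT had at most 4.44 CPM. Its difference was 1.93 ± 0.16. *Tcl1*, a coactivator of AKT kinase, went from 70.6 to 72.5 CPM down to 3.45, 3.50, 1.86 and 2.19 CPM, against a WT EpiLC median of 0.979 CPM, with a difference of 1.90 ± 0.23. LBRKO EpiLC replicate 3 lay within the WT range, whose highest value was 1.94 CPM, and the other 3 lay above it. *Zfp42* (REX1), a zinc-finger marker of naive cells, kept 90.1, 82.2, 39.9 and 49.0 CPM in LBRKO EpiLCs against at most 26.1 CPM in WT, with a difference of 1.36 ± 0.19.

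*Prdm14*, a regulator that represses FGF signalling and de novo methylation, differed by 1.57 ± 0.44 (adjusted p = 0.00898). Its LBRKO EpiLC levels of 0.105 to 0.234 CPM overlapped those of WT, at 0 to 0.274 CPM, and its mES levels were lower in LBRKO, at 28.6 to 32.7 CPM against 46.1 to 57.7 CPM. Without LBRKO EpiLC replicate 4 the difference was 1.36 and not called. With all WT wells the other 10 members did not pass both thresholds. Of these, 4 passed the adjusted p alone in the higher direction: *Tbx3*, a T-box factor (0.97 ± 0.28), *Klf5*, a Krüppel-like factor (0.83 ± 0.12), *Tfcp2l1*, a CP2-family factor (0.79 ± 0.19), and *Fgf4*, the FGF ligand that mES cells make (0.77 ± 0.15). *Tbx3* was at 1.04 and called against WT replicates 1 to 4, and at 1.01 to 1.11 and called without EpiLC replicate 1, 2 or 4, while *Tfcp2l1* was at 1.03 and called against replicates 5 to 8. *Klf4*, a Krüppel-like factor, changed by -4.72 ± 0.23 in LBRKO with a difference of 0.25 ± 0.26. *Nanog*, a homeodomain factor of the network, changed by -3.55 ± 0.20 with a difference of -0.16 ± 0.22. *Fgf4* and *Gbx2*, a LIF-responsive homeobox gene, did not pass the thresholds in LBRKO, at 0.09 and 0.34, and the difference of *Gbx2* was -1.26 and called against WT replicates 1 to 4.

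The division of the LBRKO wells ran through the naive genes that stayed high. In EpiLCs, *Esrrb*, *Nr0b1*, *Zfp42* and *Tcl1* were higher in replicates 1 and 2 than in replicates 3 and 4, as *Lbr* was. With LBRKO replicates 1 and 2 alone the differences were 2.65, 3.53, 1.46 and 2.24, and with replicates 3 and 4 alone they were 2.07, 2.32, 1.18 and 1.48, all called. The difference of *Nr5a2* was 2.05 and 1.79, called in both, and that of *Prdm14* was called in neither. With the division as a term in the model all 6 stayed called.

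**Figure D2:**
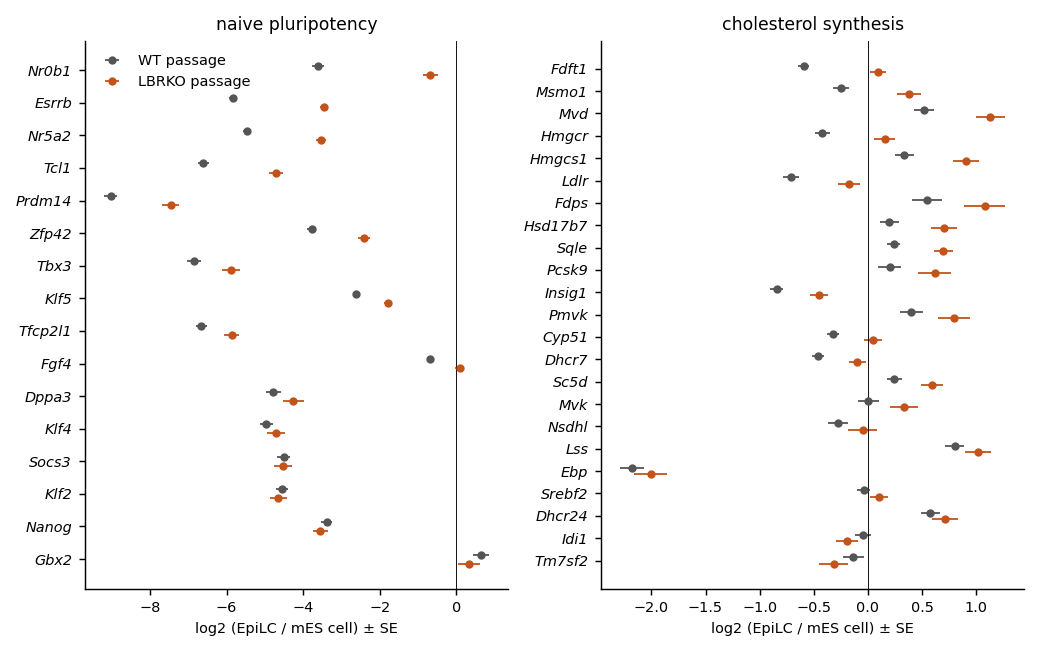
Log2 change from mES cells to EpiLCs (x axis, points, with bars of ± SE) for each naive pluripotency gene (left) and each cholesterol synthesis gene (right), in WT and in LBRKO. *Nr0b1* and *Esrrb* show the widest gaps on the left; on the right 21 of 23 genes have the LBRKO point further to the right.

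The core factors that mark both states behaved unevenly. *Pou5f1*, which encodes OCT4, changed by 0.36 ± 0.11 in LBRKO and 0.35 ± 0.08 in WT. *Sox2*, the partner of OCT4, had 217, 215, 250 and 214 CPM in LBRKO mES cells and 125, 117, 89.3 and 114 CPM in EpiLCs, and WT EpiLCs had 43.4, 59.4 and 70.2 CPM (lowest, median, highest). All LBRKO EpiLC libraries lay above all WT ones. *Sox2* fell by 1.01 ± 0.10 in LBRKO and by 2.48 ± 0.07 in WT, a difference of 1.48 ± 0.12 (adjusted p = 2.78e-12); the LBRKO fall was 0.91 without EpiLC replicate 3 and 0.95 without mES replicate 3, both short of 2-fold. *Sox21*, a SOX factor downstream of *Sox2*, fell by 1.03 in LBRKO and 4.19 in WT, with a difference of 3.17 ± 0.26. Its LBRKO fall was under 2-fold without mES replicate 3 or 4 (0.87 and 0.85) or EpiLC replicate 2 or 3 (0.98 and 0.99).

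All 16 formative and primed genes tested rose in LBRKO (background 15.3% higher), with a median of 3.72 against 3.76 in WT. *Pou3f1* (OCT6), a POU factor of the epiblast, rose by 6.66 ± 0.16, and *Dnmt3b*, a de novo DNA methyltransferase, by 3.70 ± 0.13. For 4 of the 16 the difference was called higher, among them *Fgf5*, *Otx2* and *Tcf15*, and for 1 lower (*Car14*, a membrane carbonic anhydrase, at -1.88 ± 0.29). *Tcf15*, a helix-loop-helix factor of the formative state, was at the threshold (1.01 ± 0.26) and not called without LBRKO mES replicate 1 or 3 (0.95 each) or EpiLC replicate 1 or 4 (0.92 and 0.96), and it fell just short of 2-fold against WT replicates 1 to 4.

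*Fgf5* (chr5:98401780-98452320, + strand), a growth factor that marks the formative epiblast, had 0 reads in all 4 LBRKO mES libraries, and 83.0, 90.2, 80.0 and 89.6 CPM in LBRKO EpiLCs. With a floor of 3 reads over the mES group, the rise was at least 5060-fold. WT mES cells had 0.0226, 0.0797 and 0.194 CPM (lowest, median, highest) and WT EpiLCs 132, 147 and 157 CPM. LBRKO was thus at 0 before the passage and below every WT library after it, by 0.77 ± 0.08 on the log2 scale in EpiLCs (adjusted p = 1.1e-09). The fitted difference between passages was 4.04 ± 0.88 (adjusted p = 0.00082), a value that rests on the model's handling of the mES group without reads.

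*Otx2* (chr14:48894099-48911276, - strand), a homeobox factor that drives the move out of the naive state, had 0.405, 0.644, 0.594 and 0.601 CPM in LBRKO mES cells and 68.7, 68.8, 46.0 and 63.2 CPM in EpiLCs. WT went from 2.69, 8.38 and 17.4 CPM to 92.6, 118 and 152 CPM. LBRKO lay below WT without overlap at both stages, and it climbed by 6.78 ± 0.48, against 3.74 ± 0.26 in WT. The difference was 3.04 ± 0.55 with all WT wells, 3.91 against WT replicates 1 to 4 and 1.44 against replicates 5 to 8.

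The Nodal and activin pathway held the widest gaps between the 2 passages among the genes named by the rule. Among its secreted antagonists, *Lefty1* and *Lefty2* lie 41952 bases apart on chromosome 1 in the same orientation. The 250 bases before the start of each canonical transcript (GENCODE M39 on GRCm39, + strand) are shown because the pair moved together; capitals mark CAGAC, the SMAD half-site, searched on both strands.

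Lefty1, chr1:180762337-180762586: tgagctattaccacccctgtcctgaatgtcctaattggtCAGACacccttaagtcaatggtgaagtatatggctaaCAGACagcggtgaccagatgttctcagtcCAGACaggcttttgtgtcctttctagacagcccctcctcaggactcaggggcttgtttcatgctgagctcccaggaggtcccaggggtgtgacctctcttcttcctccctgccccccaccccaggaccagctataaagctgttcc
Lefty2, chr1:180720385-180720634: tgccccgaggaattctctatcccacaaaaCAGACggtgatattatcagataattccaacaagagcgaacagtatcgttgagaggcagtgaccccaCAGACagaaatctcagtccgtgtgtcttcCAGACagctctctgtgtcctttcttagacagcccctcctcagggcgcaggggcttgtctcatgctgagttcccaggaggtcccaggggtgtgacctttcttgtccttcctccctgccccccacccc

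Each window held 3 matches, which began 211, 174 and 145 bases before the start in *Lefty1* and 221, 155 and 126 bases before it in *Lefty2*. At least 1 match was found in 41.9% of 15477 protein-coding promoter windows of 250 bases. For 3 or more, a cutoff equal to the number seen in each window shown, the share was 2.13%. Enrichment was not tested. The letters TGTNNATT, like the core bound by the SMAD partner FOXH1, were in neither window and in 8.02% of all. The longest run shared by both windows was 27 bases. A match is a string of letters and not evidence of binding.

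*Lefty1* had 0.0639, 0.0920, 0.0849 and 0.0250 CPM in LBRKO mES cells and 35.8, 36.7, 74.5 and 48.3 CPM in LBRKO EpiLCs. In WT it had 8.29, 18.7 and 35.6 CPM (lowest, median, highest) in mES cells and 39.95, 80.2 and 101 CPM in EpiLCs. It was all but silent in LBRKO mES cells, while the EpiLC ranges of both genotypes overlapped. The LBRKO change was 9.43 ± 0.61, the WT change 1.89 ± 0.23 and the difference 7.54 ± 0.71 (adjusted p = 7.43e-11), at 6.78 against WT replicates 5 to 8. In EpiLCs LBRKO and WT differed by -0.63 ± 0.28 (adjusted p = 0.094), which did not pass.

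*Lefty2* had 0.128, 0.115, 0.191 and 0.150 CPM in LBRKO mES cells and 27.8, 29.5, 22.8 and 23.5 CPM in LBRKO EpiLCs. WT stood at 10.8, 21.1 and 35.1 CPM in mES cells and at 27.7, 31.7 and 33.9 CPM in EpiLCs. In WT the stages overlapped, and in LBRKO they lay far apart without overlap. The changes were 7.43 ± 0.36 in LBRKO and 0.47 ± 0.15 in WT, with a difference of 6.96 ± 0.40 (adjusted p = 9.66e-17).

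The remaining parts of the pathway had few called differences among the genes tested. The ligand genes *Gdf1* and *Inhba*, the coreceptor genes *Tdgf1* and *Cfc1*, *Acvr1c* and the antagonist *Cer1* were not tested under these symbols. Over all genes 15.3% rose and 11.2% fell in LBRKO. Of 4 ligand and processing genes none rose and 1 fell, *Pcsk6*, a proprotein convertase (-1.83). *Nodal* had 63.1, 61.1, 67.8 and 55.3 CPM in LBRKO mES cells and 63.1, 65.7, 64.3 and 63.1 CPM in EpiLCs, and its passage difference from WT was 0.46 ± 0.09 (adjusted p = 0.000174), short of 2-fold. *Gdf3*, a Nodal-related ligand on chromosome 6, changed by 0.09 ± 0.07 in LBRKO and -0.54 ± 0.05 in WT. Of 3 receptor genes 1 fell, *Acvr1b* (ALK4, the type I receptor), by 1.11 on the log2 scale. Among 8 transducers and feedback targets 3 rose. *Smad7*, an inhibitory SMAD induced by the pathway, rose by 1.46 ± 0.11 with a difference of 0.22, and *Skil*, a corepressor of SMADs, rose by 3.15 ± 0.11 with a difference of 0.17.

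*Fst*, which encodes the activin antagonist follistatin, had 18.3, 17.0, 19.8 and 18.5 CPM in LBRKO mES cells and 8.40, 9.09, 9.32 and 8.35 CPM in EpiLCs, against WT medians of 11.2 and 14.5 CPM. Its difference was -1.37 ± 0.30, at -2.20 against WT replicates 1 to 4 and -0.93, not called, against replicates 5 to 8.

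**Figure D3:**
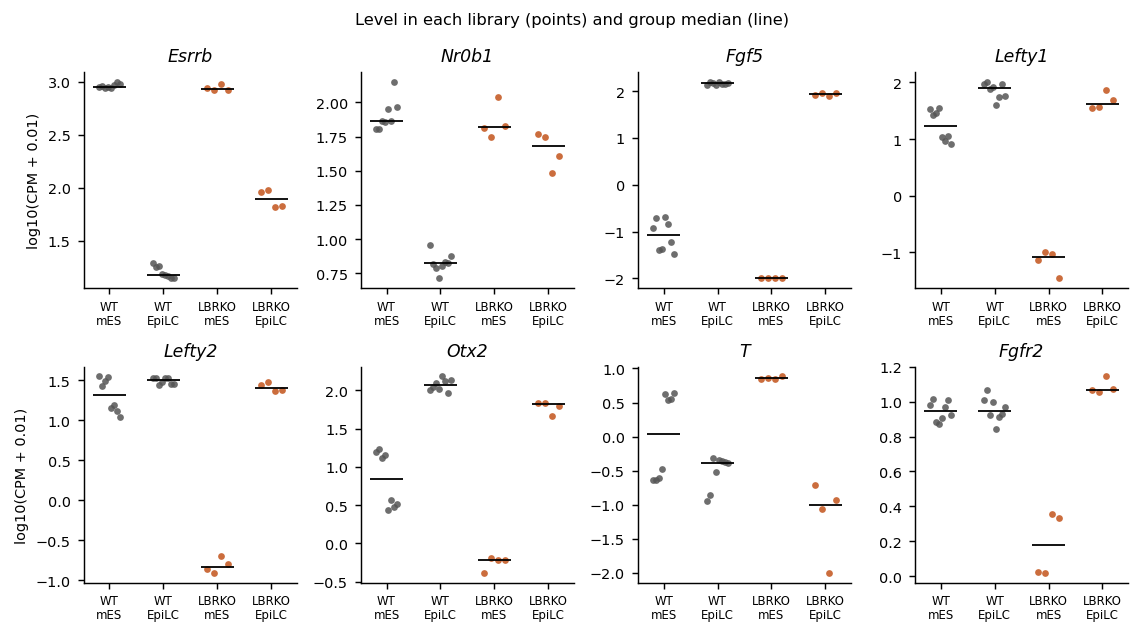
Level of 8 genes in each WT and LBRKO library (points, y axis log10 of CPM + 0.01) with the group median as a line. The stages of *Nr0b1* overlap in LBRKO and not in WT, and *Lefty1*, *Lefty2*, *Otx2* and *Fgfr2* start lower in LBRKO mES cells.

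WNT ligands and mesendoderm genes had several called decreases relative to WT: 6 of 17 differed in the lower direction (background 2.88%) and none in the higher. Only 3 of the 6 were called without EpiLC replicate 1 and 4 without mES replicate 1, and 3 with no filter or with LBRKO replicates 3 and 4 alone. Within LBRKO 3 rose (background 15.3%) and 7 fell (11.2%), and the median was -0.97. *T* (brachyury; chr17:8653062-8661328, + strand), the T-box factor of mesoderm and a WNT target, had 6.99, 7.33, 7.003 and 7.61 CPM in LBRKO mES cells and 0.182, 0.0766, 0 and 0.107 CPM in EpiLCs. WT mES cells spread from 0.217 through 1.90 to 4.41 CPM, all under LBRKO, and WT EpiLCs from 0.103 through 0.403 to 0.468 CPM. The LBRKO change was -6.27 ± 0.79 and the difference -3.64 ± 0.92 (adjusted p = 0.0038), at -6.23 against WT replicates 1 to 4 and -3.06 against replicates 5 to 8. With LBRKO replicates 1 and 2 alone it was -3.10 and not called.

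*Wnt5b*, a WNT ligand of mesoderm on chromosome 6, had 13.2, 12.6, 15.2 and 15.3 CPM in LBRKO mES cells and 3.27, 3.53, 2.97 and 3.83 CPM in EpiLCs. Its EpiLC levels overlapped those of WT, at 3.28 to 4.31 CPM, and its mES levels were above the WT range of 1.84 to 8.85 CPM. The difference was -1.66 ± 0.36, at -2.68 and -1.09 against the WT sets. *Eomes*, a T-box factor of endoderm and mesoderm, went from 10.2 to 12.2 CPM in LBRKO mES cells to 6.02 to 7.53 CPM in EpiLCs, and the difference of -1.02 ± 0.14 was the same against either WT set. Without mES replicate 3 or EpiLC replicate 1 it was -0.99 or -0.98, just short of 2-fold. *Mixl1*, *Fgf8* and *Wnt8a*, a homeobox factor, a growth factor and a WNT ligand of the primitive streak, differed by -1.28, -1.58 and -1.58, and none was called against WT replicates 5 to 8. *Wnt8a* was called only without LBRKO mES replicate 2 or EpiLC replicate 4 among the sets with a library left out (its other values ran from -1.34 to -1.69), and *Fgf8* lost its call without mES replicate 1, 2 or 4 or EpiLC replicate 1 (-1.40 to -1.59). *Axin2*, *Sp5* and *Cdx1*, targets of WNT signalling, fell by 3.13, 9.73 and 8.64 on the log2 scale in LBRKO and their differences from WT did not pass both thresholds with all WT wells, though *Axin2* and *Cdx1* did against WT replicates 1 to 4 (-1.78 and -3.39) and *Cdx1* against replicates 5 to 8 (-1.08). The CHIR-99021 in the mES medium, which acts on the WNT pathway, was removed in both genotypes.

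FGF receptors and ERK feedback genes had 5 rises (background 15.3%) and 1 fall (11.2%) among 13 tested. Without LBRKO mES replicate 3, or with LBRKO replicates 1 and 2 alone, 6 rose and none fell. *Fgfr2*, an FGF receptor of epithelial and endodermal cells, had 1.04, 1.03, 2.25 and 2.15 CPM in LBRKO mES cells and 11.7, 11.4, 13.9 and 11.8 CPM in LBRKO EpiLCs. WT stayed level, at 7.43, 8.86 and 10.3 CPM in mES cells and 7.004, 8.87 and 11.7 CPM in EpiLCs. The change was 2.91 ± 0.19 in LBRKO and 0.04 ± 0.12 in WT, with a difference of 2.87 ± 0.22 (adjusted p = 7.61e-13). *Fgfr1*, the main receptor of the epiblast, changed by 0.39 and 0.56. *Dusp6*, a phosphatase that ERK induces against itself, rose by 2.82 ± 0.32 in LBRKO and 4.06 in WT. Its difference of -1.24 was -0.95 and not called against WT replicates 5 to 8, and -0.92 and not called without LBRKO mES replicate 3. With only the 24 WT and LBRKO libraries it was -1.20 and not called. It was -0.34 and not called with LBRKO replicates 1 and 2 alone, and -1.99 and called with replicates 3 and 4 alone.

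Markers of other cell types were counted to see what else the wells might hold. Over all genes 15.3% rose and 11.2% fell in LBRKO. Of 16 primitive endoderm genes 5 rose and 6 fell in LBRKO, and their summed level went from 1280 to 1580 CPM in mES cells to 685 to 808 CPM in EpiLCs (WT 1370 to 1620 and 699 to 883 CPM). The factors *Gata6* and *Sox17* had 94 and 118 reads over all 4 mES libraries and 94 and 94 over the EpiLC libraries. *Gata4*, also a defining factor of this lineage, had more, with 1912 reads in mES cells and 1167 in EpiLCs. *Dab2*, an endocytic adaptor of the endoderm, had 4.24, 5.40, 7.47 and 6.61 CPM in LBRKO mES cells and 3.27, 3.91, 5.50 and 4.51 CPM in EpiLCs, while WT climbed from 1.02 to 1.61 CPM to 3.92 to 8.37 CPM. LBRKO mES cells thus lay within the range of WT EpiLCs, and the difference was -2.79 ± 0.27. *Hnf4a*, a nuclear receptor of endoderm, differed by 1.44, and *Sox7* and *Amn*, a SOX factor and a subunit of the cubilin receptor, by -1.46 and -1.57. *Sox7* was not called without mES replicate 2 or EpiLC replicates 1 or 4 (-1.25 to -1.43) nor against WT replicates 5 to 8 (-1.21), nor *Amn* without mES replicate 2, 3 or 4 or EpiLC replicate 1, 2 or 3 (-1.33 to -1.61) nor against either WT set (-1.45 and -1.69).

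Of 12 trophectoderm genes 3 rose and 5 fell, beside 15.3% and 11.2% of all genes, which is the background for the next lists too. Their sum was 219 to 242 CPM in LBRKO mES cells and 42.3 to 53.3 CPM in EpiLCs. In WT it was 178 to 207 and 47.6 to 57.0 CPM. *Krt8* and *Krt18*, a pair of simple-epithelial keratins, differed by -1.37 and -1.31, and *Gata3* and *Tead4*, trophectoderm factors, by 1.10 and 1.00. *Gata3* was not called without mES replicate 1 or 3 or EpiLC replicate 4 (0.81 to 1.07) nor against WT replicates 1 to 4 (0.91), nor *Tead4* without mES replicate 3 or 4 or EpiLC replicate 1 or 2 (0.89 to 1.00) nor against WT replicates 1 to 4 (0.99). Of 12 neural genes 6 rose and 2 fell, with a sum of 215 to 248 CPM in mES cells and 241 to 261 CPM in EpiLCs (WT 269 to 300 and 330 to 364 CPM). *Pax6*, a neural homeobox factor, reached 2.25 to 2.72 CPM in LBRKO EpiLCs against 4.27 to 6.90 CPM in WT, from a lower start, and differed by 1.34 ± 0.35, at 0.81 and not called against WT replicates 1 to 4. *Ncam1*, a cell adhesion molecule, differed by 1.27 ± 0.13. Of 7 fibroblast or feeder markers 4 rose and 3 fell. Their sum was 10.2 to 11.1 CPM in LBRKO mES cells and 12.5 to 16.5 CPM in LBRKO EpiLCs. In WT it was 5.94 to 7.76 and 16.7 to 23.7 CPM, so LBRKO lay above WT in mES cells and below it in EpiLCs. The collagen genes *Col1a1* and *Col1a2* differed by -2.03 and -2.35. The share of these other cell types in the results above was not tested.

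Of 12 2-cell-like genes tested, 8 rose in LBRKO (background 15.3%) and 12 in WT (18.2%), and no difference was called. Against WT replicates 1 to 4 alone 2 of them differed lower. They are members of multigene families, and reads that map to several members were not counted. Their summed level was far lower in LBRKO than in WT at both stages, at 0.0426 to 0.275 CPM against 0.387 to 3.25 CPM in mES cells and 1.15 to 2.64 CPM against 15.2 to 24.5 CPM in EpiLCs. *Zscan4d*, a telomere-linked zinc-finger gene of this state, had 3 reads in LBRKO mES cells and 51 in LBRKO EpiLCs, a ratio of 17.0 (95% counting interval 5.48 to 84.9).

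Of 9 DNA methylation genes 3 rose (background 15.3%) and 1 fell (11.2%) in LBRKO. *Dnmt3a*, *Dnmt3b* and *Dnmt3l*, which set methylation de novo, rose by 3.75, 3.70 and 1.89, and their differences of -0.29, -0.62 and -0.76 did not reach 2-fold. *Dnmt3l*, the cofactor without catalytic activity, had 164 to 179 CPM in LBRKO mES cells against 18.3 to 31.9 CPM in WT, and 528 to 704 CPM in LBRKO EpiLCs against 120 to 174 CPM. It was higher in LBRKO at both stages and moved less on the log2 scale. *Tet2*, a dioxygenase that oxidises 5-methylcytosine and is part of the naive programme, kept 40.9, 53.4, 51.1 and 30.2 CPM in LBRKO EpiLCs against 11.1 to 24.8 CPM in WT. It differed by 1.32 ± 0.22, at 0.86 and not called against WT replicates 1 to 4.

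Of 18 germline and piRNA genes 11 rose (background 15.3%) and 1 fell (11.2%) in LBRKO. From WT, 5 differed higher (background 3.12%) and 1 lower (2.88%). *Morc1*, a GHKL ATPase of the male germline, had 159 to 163 CPM in LBRKO mES cells and 90.2, 93.9, 70.9 and 81.5 CPM in EpiLCs, where WT had 22.3 to 25.4 CPM. Its difference was 1.91 ± 0.08 (adjusted p = 9.47e-21). *Tdrd12*, a Tudor protein of the piRNA pathway, changed by 0.00 ± 0.07 in LBRKO and -1.13 in WT, a difference of 1.13 that was 0.97 and not called against WT replicates 5 to 8. *Hormad1*, a meiotic chromosome axis protein, differed by 1.34 ± 0.16, not called against WT replicates 5 to 8, where it sat at the 2-fold threshold. *Piwil4*, an Argonaute protein that binds piRNAs, and *Asz1*, a protein of the germ-cell piRNA machinery, differed by 1.51 ± 0.52 and 1.17 ± 0.40. *Piwil4* lost its call without mES replicate 1, 3 or 4 or EpiLC replicate 3 or 4 (1.28 to 1.57), against WT replicates 5 to 8 (1.26) and with the replicate block (1.45). *Asz1* lost its call without mES replicate 1, 2 or 3 or EpiLC replicate 2 or 4 (1.08 to 1.21), against WT replicates 1 to 4 (0.86) and with the replicate block (1.15). Between 2 and 5 of the 5 higher differences were called under the alternatives. *Taf7l*, a germ-cell subunit of TFIID, rose by 2.34 ± 0.22 in LBRKO and 4.14 in WT, a difference of -1.80.

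Of 27 imprinted genes 14 rose (background 15.3%) and 2 fell (11.2%) in LBRKO. From WT, 1 differed higher (background 3.12%) and 4 lower (2.88%). *Nnat*, a small proteolipid gene, had 3.67 to 5.31 CPM in LBRKO mES cells and 15.3 to 19.9 CPM in EpiLCs, against 1.49 to 2.64 and 17.3 to 23.3 CPM in WT, a difference of -1.43 ± 0.19. *Dlk1*, a NOTCH-like ligand, differed by -1.69, *Sgce*, for epsilon-sarcoglycan on chromosome 6, by -1.55, and *H19*, a maternally expressed non-coding RNA, by 1.53, at 1.25 and not called against WT replicates 1 to 4. *Peg10*, the neighbour of *Sgce*, differed by -1.14, at -0.06 and not called against WT replicates 5 to 8. It was also not called without LBRKO mES replicate 3 or 4 or EpiLC replicate 1 (-0.89 to -1.10). With LBRKO replicates 1 and 2 alone *Sgce* was at -0.90 and *Peg10* at -0.49, neither called. With replicates 3 and 4 alone *Sgce* and *Peg10* were at -1.97 and -1.54 and called, and *H19* was at 1.30 and not called.

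Cholesterol synthesis genes were examined because LBR carries a sterol reductase. Only 3 of 23 rose past 2-fold in LBRKO (background 15.3%) and 1 fell (11.2%), and none differed from WT past both thresholds. Without EpiLC replicate 1 only 1 rose past 2-fold, with *Fdps* at 0.93 and *Lss* at 0.97. By adjusted p alone, 12 of 23 differed in the higher direction (background 6.91%) and none in the lower (8.57%), 21 of 23 differences were above 0, and the list median was 0.33 in LBRKO and -0.04 in WT. The summed level was 4150 to 4350 CPM in LBRKO mES cells and 4940 to 5880 CPM in LBRKO EpiLCs, and in WT 3820 to 4120 and 3070 to 4380 CPM, so that LBRKO lay above WT at each stage without overlap. *Hmgcs1*, HMG-CoA synthase, had 476, 474, 487 and 445 CPM in LBRKO mES cells and 873, 956, 819 and 870 CPM in EpiLCs, above the WT EpiLC range of 386 to 715 CPM. It changed by 0.90 ± 0.12 in LBRKO and 0.34 ± 0.09 in WT. *Fdft1*, squalene synthase, changed by 0.09 ± 0.07 in LBRKO and by -0.59 in WT, a difference of 0.69 ± 0.09. *Tm7sf2*, the other sterol C14 reductase, differed by -0.18 ± 0.17. *Mvd*, mevalonate diphosphate decarboxylase, differed by 0.61 ± 0.16, at 1.02 against WT replicates 1 to 4 and 0.29 against replicates 5 to 8.

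Heterochromatin and envelope genes had no difference between passages past both thresholds, where 6% of all genes had one. This held for 18 H3K9 methylation and HP1 genes and 16 nuclear envelope genes. By adjusted p alone 1 of the 18 differed higher (background 6.91%) and 4 lower (8.57%). Of the 16 envelope genes 2 differed higher and 2 lower by that measure. *Kdm4c*, an H3K9 demethylase, rose by 1.66 and *Kdm3a* and *Kdm3b*, demethylases of H3K9me2, fell by 1.15 and 1.27 on the log2 scale in LBRKO. *Lmna*, for lamins A and C, fell by 2.19 ± 0.11 in LBRKO and 2.35 in WT. Of 20 antiviral genes 3 rose (background 15.3%) and 8 fell (11.2%) without a called difference. Of 19 p53 targets 2 rose (1 without EpiLC replicate 3) and 1 fell, *Cdkn1a*, the cell-cycle inhibitor p21, by 1.56 on the log2 scale. By adjusted p alone 8 p53 targets differed higher (background 6.91%) and 1 lower (8.57%). None of 6 Y-linked and none of 11 mitochondrially encoded genes had a called difference, though *mt-Nd3* was at 1.66 and called without mES replicate 2. With the replicate block 1 mitochondrial gene differed higher. All 11 mitochondrial differences were above 0, with a median of 0.45, and none passed the adjusted p alone.

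**Figure D4:**
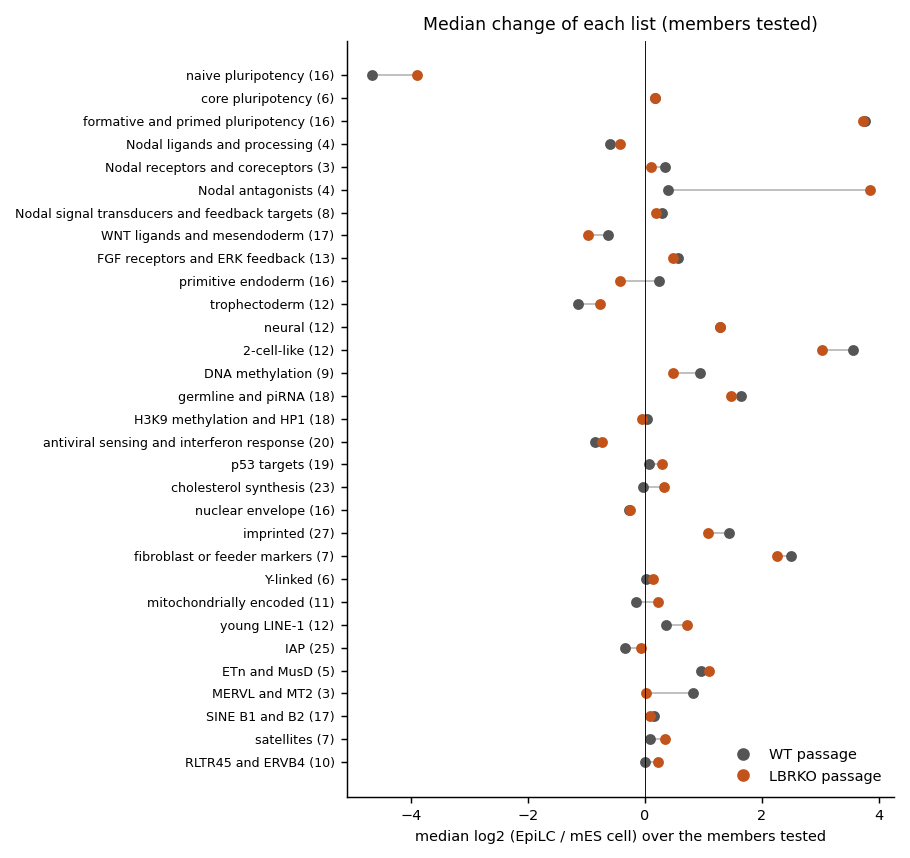
Median log2 change from mES cells to EpiLCs over the tested members of each gene or TE list (x axis), with WT and LBRKO as points joined by a line and the number tested in brackets. The naive list sits at -4.66 in WT and -3.90 in LBRKO, and the formative list at 3.76 and 3.72.

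The genes with the largest changes within LBRKO included several without reads at one of the stages. *Car4*, a carbonic anhydrase, had 0 mES reads and rose at least 4150-fold in LBRKO. *Enpp2*, which encodes autotaxin, had 2 mES reads and a ratio of 6410 (95% counting interval 1770 to 52900), and its EpiLC levels of 67.7 to 80.4 CPM overlapped the WT range of 59.9 to 83.8 CPM. *Rxrg*, a retinoid X receptor, rose at least 279-fold and *Gpm6a*, a neuronal membrane glycoprotein, at least 359-fold. Among the falls, *Srarp*, a steroid receptor regulator, had no EpiLC reads and fell at least 648-fold. *Khdc1a*, of a KH-domain family for which reads fitting several members were not counted, fell at least 323-fold. *Crxos*, a homeobox gene of naive cells, went from 122 to 134 CPM to 0.167 to 0.363 CPM.

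The largest differences between passages also took in genes of no list. *Gna14*, a G protein alpha subunit, had 2.47, 3.01, 2.99 and 1.93 CPM in LBRKO mES cells and 6.02, 7.56, 5.75 and 5.96 CPM in EpiLCs, whereas WT went from 4.99 to 6.20 CPM down to 0.911 to 1.75 CPM. It rose in LBRKO (1.28 ± 0.21) and fell in WT (-2.13 ± 0.16). *Styxl2*, of the dual-specificity phosphatase family, went from 24.6 to 26.9 CPM to 34.7 to 42.7 CPM in LBRKO and from 42.0 to 53.5 CPM to 7.82 to 11.0 CPM in WT, a difference of 3.06 ± 0.11 (adjusted p = 3.22e-24). *Spic*, an ETS factor of naive cells, had 11.4 to 16.7 CPM in LBRKO mES cells and 0.0227, 0.0255, 0.0836 and 0 CPM in EpiLCs, while WT EpiLCs had no reads. Its fitted difference of 4.30 rests on that empty group and was 3.31 and not called without LBRKO EpiLC replicate 3.

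*Kctd12b*, a potassium channel tetramerisation domain gene, had 1 read in all LBRKO mES cells and 5.56 to 9.89 CPM in EpiLCs, against 0.833 to 1.37 and 6.13 to 11.3 CPM in WT. *Duxbl1*, a double homeobox gene, went from 0 to 0.127 CPM to 8.93 to 10.6 CPM in LBRKO and from 0.492 to 1.96 CPM to 9.44 to 12.6 CPM in WT. *Mup6*, a major urinary protein gene, went from 0.0250 to 0.149 CPM to 6.42 to 7.52 CPM, against 0.714 to 1.48 and 6.58 to 11.0 CPM in WT. Reads fitting several members of its family were not counted. *Kctd12b*, *Duxbl1* and *Mup6* had overlapping EpiLC levels in both genotypes and lower mES levels in LBRKO. *Nnmt*, nicotinamide N-methyltransferase, kept 0.167 to 0.613 CPM in LBRKO EpiLCs against 0.0248 to 0.285 CPM in WT, from 1.70 to 2.09 and 4.49 to 6.44 CPM.

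In the lower direction, *Gjb2*, for connexin 26, had 2.36, 2.53, 2.21 and 1.90 CPM in LBRKO mES cells and 1.77, 1.46, 1.67 and 1.38 CPM in EpiLCs. WT climbed from 0.935 to 1.44 CPM to 5.17 to 7.80 CPM, a difference of -2.87 ± 0.27. *Slc25a24*, a mitochondrial ATP-Mg/phosphate carrier, changed by -0.17 ± 0.26 in LBRKO and 2.58 in WT. *Or2y7*, an olfactory receptor gene, *Pcdh18*, a protocadherin, *Mal2*, a membrane traffic protein, and *Slc35f1*, a solute carrier, rose in both genotypes, and their LBRKO rises of 2.35, 3.87, 3.31 and 4.98 compared with 5.11, 6.59, 5.82 and 7.48 in WT. The difference of *Slc35f1*, -2.50, was -1.98 and not called without LBRKO mES replicate 1 and -2.12 and not called against WT replicates 1 to 4. *Astn1*, a neuronal adhesion protein, changed by 0.77 ± 0.36 against 3.27 in WT. *Gpnmb*, a membrane glycoprotein on chromosome 6, and *Ephb1*, an ephrin receptor, fell by 3.16 and 4.07 on the log2 scale in LBRKO against 0.37 and 1.36 in WT, from higher mES levels. *Tmem54*, a membrane protein gene, had no reads in WT mES cells, so its fitted difference of -3.16 is no measured fold; without LBRKO mES replicate 2 or 3 it was -1.91 or -3.17 and not called, DESeq2 gave -2.41, not called, and it was called against neither WT set.

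A smaller share of transposable element families changed than of genes. TEs are repeats left by mobile DNA, and young LINE-1 and endogenous retroviruses are the families that heterochromatin and DNA methylation hold silent. Of 1142 TE families tested 29 rose (2.54%) and 11 fell (0.963%) in LBRKO, and 27 rose (2.36%) and 25 fell (2.19%) in WT. The shared calls numbered 20, which is 50% of the LBRKO list and 38.5% of the WT list. Only 5 families differed higher (0.438%) and 3 lower (0.263%). Without LBRKO EpiLC replicate 3, the library with the high TE share, 15 families rose and 21 fell. The share of reads on TEs was 8.67 ± 0.907% in LBRKO mES cells and 9.56 ± 2.26% in EpiLCs (SD, n = 4 each; exact two-sided permutation test, p = 0.629, adjusted over 5 shares 0.771), against 7.60 ± 0.966 and 8.51 ± 0.985% in WT (n = 8 each). The smallest p that 4 against 4 allows is 0.0286. Without EpiLC replicate 3 the mean share was 0.161 percentage points lower in EpiLCs.

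Of 12 young LINE-1 families 3 rose in LBRKO (2.54% over all families) and none fell (0.963%). Their median was 0.72 against 0.35 in WT and 0.147 over all families in LBRKO. L1MdA_I, an A-type LINE-1 with intact copies in the mouse genome, had 170, 215, 174 and 292 CPM in LBRKO mES cells and 498, 528, 709 and 741 CPM in EpiLCs. WT went from 148, 231 and 356 CPM to 309, 375 and 453 CPM, so the mES ranges overlapped and every LBRKO EpiLC library lay above every WT one. It rose by 1.54 ± 0.18 in LBRKO and changed by 0.70 ± 0.12 in WT, and the difference of 0.84 ± 0.21 (adjusted p = 0.00443) was short of 2-fold with all WT wells. It was 0.66 against WT replicates 1 to 4, and it passed 2-fold at 1.08 against replicates 5 to 8, at 1.02 with uniquely mapped reads and at 1.04 without LBRKO mES replicate 4. L1MdA_II and L1MdTf_III rose by 1.13 ± 0.16 and 1.05 ± 0.15, and both fell short of 2-fold without EpiLC replicate 3, at 0.92 and 0.88, and with uniquely mapped reads, at 0.88 and 0.91.

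L1MdTf_II, a Tf-type LINE-1, had 363, 546, 364 and 382 CPM in LBRKO mES cells and 876, 659, 768 and 711 CPM in EpiLCs, a change of 0.86 ± 0.16 against 0.15 ± 0.12 in WT. Without mES replicate 2 its change was 1.03 and past 2-fold. Its difference of 0.72 ± 0.20 was past the adjusted p (0.0102) and not past 2-fold. MERVL-int, the internal part of the retrovirus that 2-cell-like cells express, had 66.0, 58.8, 66.1 and 78.9 CPM in LBRKO mES cells and 65.4, 65.3, 124 and 92.1 CPM in EpiLCs. WT climbed from 45.4 to 101 CPM to 137 to 230 CPM. The LBRKO stages overlapped and the WT stages did not. The change was 0.36 ± 0.18 in LBRKO and 1.53 ± 0.13 in WT, a difference of -1.16 ± 0.23 (adjusted p = 0.00022), at -1.69 against WT replicates 1 to 4 and -0.65, not called, against replicates 5 to 8; with LBRKO replicates 3 and 4 alone it was -0.95 and not called. Its LTR, MT2_Mm, differed by -0.80 ± 0.16, which passed 2-fold against WT replicates 1 to 4 (-1.14).

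Of 5 ETn and MusD families, non-autonomous and autonomous retroviruses active in mice, 3 rose (2.54% over all families) and 1 fell (0.963%). ETnERV-int went from 1413 to 1472 CPM to 2941 to 3649 CPM in LBRKO, a rise of 1.16 ± 0.06 against a change of 0.96 in WT (0.96 in LBRKO, not called, with uniquely mapped reads), and MMETn-int rose by 1.20 ± 0.07. None of 25 IAP families, 17 B1 and B2 SINE families or 10 RLTR45 and ERVB4 families was called in LBRKO in either direction, and 2 of 7 satellites rose. With a library left out, 1 IAP family (IAPEY5_I, 1.53 without mES replicate 2) and ERVB4_1C-LTR_Mm (1.03 without EpiLC replicate 2) rose. ERVB4_2-LTR_MM was called in both directions, at 1.34 without mES replicate 2 and at -1.29 without EpiLC replicate 1. IAPEy-int fell with uniquely mapped reads (-1.15). The satellites that rose were MurSAT1 (2.95 ± 0.90) and SYNREP_MM (1.07 ± 0.40), and without EpiLC replicate 3, the library with the high TE share, neither was called (2.14 and 0.66). SYNREP_MM was not called without EpiLC replicate 4 (0.86) or mES replicate 1 (1.03) or with the replicate block (0.85) either. In the ETn group, RLTRETN_Mm was short of 2-fold without EpiLC replicate 4 (0.99) and the family that fell, ETnERV3-int, without EpiLC replicate 1 (-0.99). RLTR1B-int, the internal part of an ERV1 retrovirus, had 102, 93.3, 113 and 117 CPM in LBRKO mES cells and 19.5, 18.4, 28.8 and 21.9 CPM in EpiLCs. It fell by 2.26 ± 0.17 in LBRKO and 1.23 ± 0.11 in WT, with a difference of -1.03 ± 0.19 that was -0.82 and not called against WT replicates 5 to 8, and under 2-fold without mES replicate 4 or EpiLC replicate 1 or 2 (-0.95 to -0.98); without mES replicate 3 it sat just under 2-fold. RLTR13B2 and RMER16B2, both LTR families, fell by 2.47 and 1.98 on the log2 scale, near the WT changes of -2.48 and -1.60. Other rises were those of Mam_R4 (1.84), of MamTip1, from 0.361 to 0.766 CPM up to 1.13 to 2.69 CPM, and of RLTR13G, from 53.4 to 60.8 CPM up to 122 to 243 CPM. The differences in the higher direction were in families of a few CPM: UCON41 (1.57), RLTR10D2 (1.20), RLTR5_Mm (1.09) and RLTR31M (1.00). Of these, RLTR10D2 and RLTR31M were at 0.98 and 0.80 and not called against WT replicates 5 to 8, and RLTR5_Mm was at 0.13 with uniquely mapped reads and at 0.91 without EpiLC replicate 3 or 0.99 without mES replicate 4. RLTR31M also lost its call without mES replicates 1, 2 or 3 or EpiLC replicates 3 or 4 (0.78 to 0.98). The other called families, named after their values were seen, were LTR107_Mam (1.42) and X11_DNA (-1.39), both under 1 CPM in every group.

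**Figure D5:**
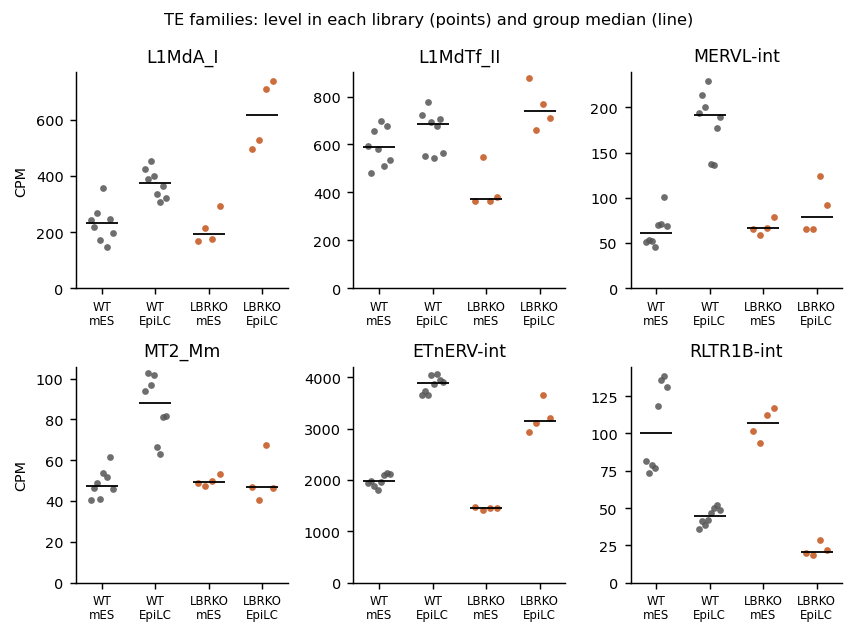
Level of 6 TE families in each WT and LBRKO library (points, y axis CPM from 0) with the group median as a line. The LBRKO EpiLC points of L1MdA_I, at 498 to 741 CPM, lie above all WT EpiLC points, and those of MERVL-int lie below them.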

How the data were processed

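Total RNA was measured in 40 libraries. Per the labels and the study's methods, the authors trimmed reads with cutadapt 2.5 and aligned them to GRCm39 with STAR 2.7.10a and GENCODE M30. They indexed the alignments with SAMtools 1.10 and counted genes with featureCounts 1.6.4. Whether counting used strand is not given in the sources used here; overlapping and antisense genes are thus uncertain. The deposited tables hold raw counts: reads per gene, per TE family (TEcount, which shares a multimapped read among families) and per single TE copy from uniquely mapped reads. The authors' own normalisation was not in these tables.

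Here the counts were fitted with edgeR 4.0.16 in R 4.3.3 (quasi-likelihood test, TMM scaling, filterByExpr on the 8 groups, a mean per group over all 40 libraries, no covariate). Of 56748 gene identifiers 23399 were tested, and of 1243 TE families 1142, the latter in a model with the genes. P-values were adjusted over all features tested. The contrasts were the LBRKO passage, the WT passage and their difference. The script was tested on simulated data. Positions come from GENCODE M39, in which 56017 identifiers were found. Named genes were *Lbr*, members of the gene and TE lists and, by rule, the 10 largest LBRKO changes and the 12 largest differences in each direction among genes past the thresholds with a group mean of at least 5 CPM and a gene symbol, without overlap of the LBRKO stages for the former. For TE families the rule took up to 8 at 1 CPM. Only some of those eligible are described. The members, lists and tests were chosen with earlier results of these data known. Alternatives were RLE size factors, DESeq2 1.42.0, no filter, only the 24 WT and LBRKO libraries, either WT set alone, a replicate block, each LBRKO library left out, LBRKO replicates 1 and 2 or 3 and 4 alone or as a term (added after seeing the data) and uniquely mapped TE reads. Counting intervals and floors cover counting error only. TKO and QKO libraries entered the fit and are not described. A few genes are not reported here.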

Additional observations from a re-analysis of the deposited data

Results flagged for a closer look

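Single libraries stood apart from the others of their group, by a gap to the nearest neighbour that was large for the group's range, in 9 of 160 groups examined over 40 genes and TE families, and chance alone flags about 1 in 20 groups. They were *Nr0b1* (141 CPM), MERVL-int (101 CPM) and RLTR5_Mm (2.61 CPM) in WT mES replicate 7, *Sox2* in LBRKO mES replicate 3 (250 CPM), *Gna14* in LBRKO EpiLC replicate 2 (7.56 CPM) and L1MdTf_II in LBRKO mES replicate 2 (546 CPM). *Kctd12b* was so in 3 groups, at 1.37 CPM in WT mES replicate 2, 0.025 CPM in LBRKO mES replicate 4 (its only read in that group) and 9.89 CPM in LBRKO EpiLC replicate 3.

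The passage of the genes and TE families below differed between LBRKO and WT by the interaction term of the edgeR test, and values are the LBRKO log2 change minus the WT log2 change. Among antagonists of Nodal these were *Lefty1* (7.54), *Lefty2* (6.96) and *Fst* (-1.37). Among pluripotency genes they were *Nr0b1* (2.94), *Esrrb* (2.38), *Nr5a2* (1.93), *Tcl1* (1.90), *Prdm14* (1.57), *Sox2* (1.48), *Zfp42* (1.36), *Fgf5* (4.04), *Otx2* (3.04), *Tcf15* (1.01) and *Car14* (-1.88). Among WNT, FGF and mesendoderm genes they were *Fgfr2* (2.87), *T* (-3.64), *Wnt5b* (-1.66), *Fgf8* (-1.58), *Wnt8a* (-1.58), *Mixl1* (-1.28), *Dusp6* (-1.24) and *Eomes* (-1.02).

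Lineage markers with such a difference were *Hnf4a* (1.44), *Sox7* (-1.46), *Amn* (-1.57), *Dab2* (-2.79), *Gata3* (1.10), *Tead4* (1.00), *Krt18* (-1.31), *Krt8* (-1.37), *Pax6* (1.34), *Ncam1* (1.27), *Col1a1* (-2.03) and *Col1a2* (-2.35). In the methylation, germline and imprinted lists they were *Tet2* (1.32), *Morc1* (1.91), *Piwil4* (1.51), *Hormad1* (1.34), *Asz1* (1.17), *Tdrd12* (1.13), *Taf7l* (-1.80), *H19* (1.53), *Peg10* (-1.14), *Nnat* (-1.43), *Sgce* (-1.55) and *Dlk1* (-1.69). Genes of no list were *Kctd12b* (6.36), *Spic* (4.30), *Duxbl1* (4.13), *Gna14* (3.41), *Mup6* (3.28), *Nnmt* (3.24), *Sox21* (3.17), *Styxl2* (3.06), *Slc35f1* (-2.50), *Astn1* (-2.50), *Mal2* (-2.51), *Ephb1* (-2.70), *Pcdh18* (-2.72), *Slc25a24* (-2.74), *Or2y7* (-2.76), *Gpnmb* (-2.79), *Gjb2* (-2.87) and *Tmem54* (-3.16). TE families were UCON41 (1.57), RLTR10D2 (1.20), RLTR5_Mm (1.09), RLTR31M (1.00), RLTR1B-int (-1.03) and MERVL-int (-1.16).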

How the results depend on the processing

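Counts of genes stayed within 1.5 times of those reported under every alternative fixed at the outset. In LBRKO 3328 to 4162 genes rose and 2537 to 3000 fell, and the difference was called higher for 621 to 981 and lower for 578 to 856. DESeq2 called 814 and 706 differences, and the 2 WT sets alone gave 819 and 856 (replicates 1 to 4; 588 and 535 shared with all WT wells) or 621 and 620 (replicates 5 to 8; 515 and 463 shared). TE counts depended on the setting. The 5 families with a higher difference became 3 with RLE size factors, with no filter, with only 24 libraries and with the replicate block, 9 against WT replicates 1 to 4 and 8 with uniquely mapped reads. The 3 with a lower difference became 5 against WT replicates 1 to 4 and 0 against replicates 5 to 8, where edgeR called 1 family past 2-fold at an unadjusted p under 0.05 and where no other tool was run. WT families that rose went from 27 to 14 with WT replicates 5 to 8, and LBRKO families that fell from 11 to 21 with uniquely mapped reads. Leaving out 1 LBRKO library gave 15 to 38 rising and 10 to 21 falling families, and 3 to 7 higher and 1 to 6 lower differences. The change of a TE share turned sign for SINEs with uniquely mapped reads (-0.102 percentage points), for DNA elements without LBRKO mES replicate 4 (0.0733), and for all TEs (-0.161) and SINEs (-0.204) without LBRKO EpiLC replicate 3, none past the test. With 1 library left out the changes ran from -0.161 to 1.46 for all TEs, -0.204 to 0.557 for SINEs and -0.171 to 0.0733 for DNA elements. Single values that turned were *Cdx2* in WT (2.51) and the difference of *Lef1* (-1.45) with WT replicates 1 to 4, and ERVB4_2-LTR_MM in LBRKO without EpiLC replicate 1 (-1.29, and up to 1.34 without other libraries). Alternatives chosen after seeing the data used LBRKO replicates 1 and 2 alone, or 3 and 4 alone, or this division as a term. With replicates 3 and 4 alone 476 higher and 449 lower gene differences were called (417 and 396 shared with all wells), and with 1 and 2 alone 595 and 582 (502 and 439 shared). TE families with replicates 1 and 2 alone numbered 13 rises, 23 falls, and 3 higher and 5 lower differences, with SYNREP_MM at -0.22, and with 3 and 4 alone no lower difference (0) was called. With the division as a term 735 and 686 gene differences were called. The cause was not tested. Replicate numbers did not pair the LBRKO libraries one to one: same-numbered wells had correlations of -0.156, 0.263, 0.358 and 0.147, and mES replicates 1 and 2 correlated best with EpiLC replicates 3 and 1. The replicate block gave 3615 rises, 2637 falls, and 818 higher and 692 lower differences. Wells, and not lines, set the error, and genes of a few reads have folds that depth limits.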

Other observations

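Of the 23 genes called in opposite directions in LBRKO and WT, 14 rose in LBRKO and fell in WT, and 9 did the reverse; those named here were picked after their values were seen. *Igfbp5*, an insulin-like growth factor binding protein, went from 32.2 to 15.2 CPM (means) in LBRKO and from 15.7 to 34.8 CPM in WT. *Copz2*, a coatomer subunit, went from 0.863 to 1.90 CPM in LBRKO and from 4.25 to 1.35 CPM in WT, and *St8sia2*, a polysialyltransferase, from 2.83 to 1.12 CPM and from 0.362 to 0.903 CPM. Most of the 23 had under 1 CPM in every group.

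By gene class, 7.13% of 15477 protein-coding genes and 4.89% of 3253 lncRNA genes had a passage that differed between LBRKO and WT, beside 28.7% and 30.6% that changed within LBRKO.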
